A study of Mus musculus with 24 samples.

Results

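High-fat feeding was compared with normal feeding in the epididymal adipose tissue of mice that lack GPR120. The comparison rests on 6 of the 24 arrays of the series, taken by their labels: 3 KO HFD mice (GPR120 knockout, high fat diet, mice 427, 428 and 429) and 3 KO ND mice (GPR120 knockout, normal diet, mice 718, 719 and 720). The 6 fat arrays of wild-type mice, 3 WT HFD (mice 546, 547 and 560) and 3 WT ND (mice 686, 687 and 690), served to ask where the diet response differed between genotypes, and the 12 liver arrays were not analysed here. All mice had a mixed 129/Sv and C57BL/6 background, and all 4 groups held different animals. The labels used here give no age, no length of feeding and no diet composition. Total RNA of each sample was hybridised to an Affymetrix mouse array, and the values are linear MAS5 signals, a brightness per probe set in intensity units. Values of 3 mice are given below in the order of the mouse numbers above, and errors of log2 differences are standard errors of the limma fit.

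GPR120, encoded by Ffar4, is a G protein-coupled receptor for long-chain fatty acids that is carried by adipocytes, by macrophages and by other cells. Epididymal fat that expands under a high-fat diet is known to take up macrophages, which gather around dying adipocytes, clear their lipid through the lysosome and remodel the collagen matrix. In bulk tissue fewer cells of a type and less RNA per cell cannot be told apart, and neither can more of either.

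The ND arrays of both genotypes carried strong signals of the epididymis, the organ to which this fat pad is attached, and the HFD arrays mostly did not. Lcn5, an epididymal lipocalin, gave 7.83, 0.37 and 0.86 in KO HFD fat, against 8334, 8712 and 6872 in KO ND fat. Every KO ND array was thus high and every KO HFD array was at background, a fall of at least 413-fold (adjusted p = 1.2e-06, limma). Gpx5, an epididymal glutathione peroxidase, fell at least 331-fold, and Rnase10, an epididymal secreted protein of the ribonuclease family, at least 312-fold. These bounds set the brighter mean against 19.3 intensity units, the median over all probe sets of the mean log2 signal, and a group mean below that level is called dim. Of 16 epididymis genes with a probe set 15 fell and 1, Npy, was called higher. The summed signal of the 16 genes ran from 55.0 to 7664 in KO HFD fat and from 58441 to 73181 in KO ND fat. All 13 epithelial genes with a probe set fell as well, with sums of 244 to 3580 in KO HFD fat and 11712 to 13336 in KO ND fat.

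The KO HFD array of mouse 427 stood apart from the other 2. Spink8, an epididymal protease inhibitor, gave 2700, 0.67 and 4.95 in KO HFD fat, against 6115, 6624 and 5322 in KO ND fat, so that mouse 427 lay below the KO ND mice but far above mice 428 and 429, which were at background. The same array alone was high for the epithelial genes Cdh1 (343, 5.0 and 3.32 in KO HFD fat, against 946, 1043 and 1074 in KO ND fat) and Epcam (405, 0.91 and 0.97 in KO HFD fat, against 1823, 1899 and 1607 in KO ND fat). It was also high for the smooth muscle myosin Myh11, at 1783, 65.4 and 38.6 in KO HFD fat, against 1295, 1626 and 1243 in KO ND fat, and for the sperm protamine Prm1, at 417, 5.89 and 1.03 in KO HFD fat, against 366, 266 and 205 in KO ND fat. Lcn5 and Gpx5 were dim on it. Without mouse 427 the remaining KO HFD values of these 3 genes were all dim, so that only bounds could be given, at least 312-fold lower for Spink8, at least 52.9-fold for Cdh1 and at least 92.0-fold for Epcam. Myh11 (log2 difference -3.06) was past the threshold with all arrays and missed it without any one of mice 428, 429, 718, 719 and 720 (adjusted p = 0.13, 0.15, 0.077, 0.092 and 0.073). Leaving out mouse 427 raised the falls among 9 sperm genes to 7, against 3 with it, those among 10 mural and smooth muscle genes to 6, against 2 with it and 0 without any one of the other 5 knockout arrays, and those among 6 skeletal muscle genes to 3, against 0. Among the mural genes Pdgfrb, the pericyte receptor, rose with every HFD array above every ND array (949, 953 and 1523 in KO HFD fat, against 334, 407 and 324 in KO ND fat), and Cspg4, a pericyte proteoglycan, rose with it (log2 difference 0.75), while Acta2 gave 4306, 2832 and 1845 in KO HFD fat, against 4320, 4487 and 3847 in KO ND fat and did not pass the test.

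**Figure D1:**
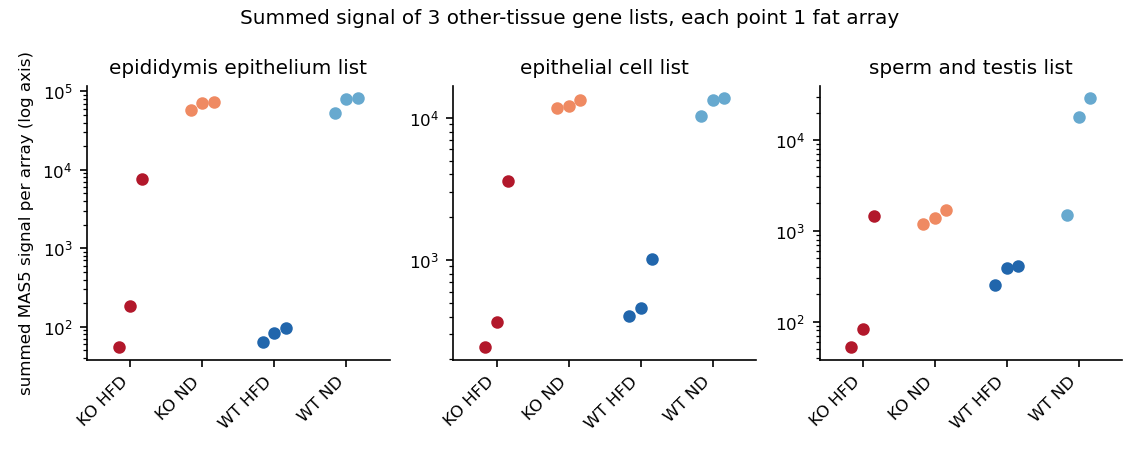
Summed MAS5 signal (log axis) of the 16 epididymis, 13 epithelial and 12 sperm genes that have a probe set, on each of the 12 fat arrays, with 3 points per group in the order KO HFD, KO ND, WT HFD and WT ND. For the epididymis and epithelial genes KO ND and WT ND fat lie above every HFD array, with mouse 427 as the highest KO HFD point (7664 for the epididymis genes), and for the sperm genes mouse 427 lies within the KO ND range at 1469.

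Diet and epididymal RNA therefore move together in this comparison and cannot be told apart for a gene that the epididymis also expresses. All arrays were scaled to one mean, so the epididymal share of an array can also shift the signals of other genes on it. The part of epididymal RNA in any one fall or rise was not tested. The largest falls among genes whose group means both reached the filter level included 4 genes that the epididymis also expresses. Cuzd1, a zymogen granule protein, gave 254, 3.58 and 1.17 in KO HFD fat, against 6444, 6740 and 5257 in KO ND fat. C4bp, which binds complement C4b, gave 47.5, 8.96 and 6.93 in KO HFD fat, against 4907, 4973 and 4292 in KO ND fat. Cldn3, a tight junction claudin, gave 211, 1.72 and 0.61 in KO HFD fat, against 1315, 1444 and 1081 in KO ND fat. Pdzk1, a scaffold of epithelial transporters, gave 72.9, 0.78 and 0.67 in KO HFD fat, against 917, 960 and 812 in KO ND fat. In each of them mouse 427 held the highest HFD value, below all KO ND values. Mice 428 and 429 were dim for all 4, and without mouse 427 the falls were bounds of at least 318-fold for Cuzd1, 245-fold for C4bp, 66.3-fold for Cldn3 and 46.4-fold for Pdzk1.

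Other tissues gave weaker signals. Alb, a hepatocyte product, gave 345, 568 and 442 in KO HFD fat, against 2435, 475 and 1468 in KO ND fat, with overlap between the diets. Cyp2e1, a drug-metabolising enzyme of liver and fat, was the 1 of 10 hepatocyte genes that fell (1022, 2281 and 1045 in KO HFD fat, against 5078, 4831 and 4050 in KO ND fat). Upk1b, a uroplakin of urothelium and mesothelium, was the 1 of 6 mesothelial genes that fell (34.5, 39.1 and 10.02 in KO HFD fat, against 305, 355 and 227 in KO ND fat). Mb, the oxygen store of muscle, gave 21.1, 4.35 and 5.06 in KO HFD fat, against 61.5, 75.3 and 77.2 in KO ND fat, and its adjusted p was 0.069, whereas Pvalb, a calcium buffer of fast muscle, was the 1 of 6 muscle genes that rose, at least 6.19-fold. The ratio of 3′ to 5′ control probe sets of Gapdh, a measure of RNA integrity and labelling, was -0.08 ± 0.02 in KO HFD fat and -0.43 ± 0.05 in KO ND fat on the log2 scale (SD, n = 3 each), and that of Actb was 0.73 ± 0.10 in KO HFD fat and 0.80 ± 0.07 in KO ND fat. For Actb the ratio was 1.44 ± 0.28 in WT HFD fat and 0.90 ± 0.02 in WT ND fat. For Gapdh it was 0.10 ± 0.11 in WT HFD fat and -0.36 ± 0.04 in WT ND fat. The Actb ratio was thus highest in WT HFD fat, which limits comparisons of diet effects between genotypes. The part of these ratios in the results was not tested.

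Much of the measured transcriptome of knockout fat differed between the diet groups. How far epididymal RNA entered the counts below was not tested. Of 11601 genes whose mean log2 signal over the 12 fat arrays reached 19.3 units, 5662 (48.8%) passed an adjusted p of 0.05, of which 2570 (22.2%) were higher and 3092 (26.7%) lower under HFD. A change of at least 2-fold was reached by 2775 of the genes (23.9%), 1224 of them higher and 1551 lower, and the 3 HFD arrays did not overlap the 3 ND arrays for 62.3% of all genes (28.3% all higher and 34% all lower). A count within a gene list is to be read against these shares. For 71 of the 5662 genes a different probe set of the same gene was called in the opposite direction. The median log2 difference of all tested genes was -0.09. The authors' scaling fixes only the mean of each array. Centring each array on the median signal of the adipocyte list moved every log2 difference by -1.601, which left 152 genes higher and 9081 lower. A milder centring, on the median deviation of the same genes, was added after the data were seen and moved every difference by -0.58, which left 827 higher and 5666 lower. Under these centrings rises smaller than the shift change sign. Wild-type differences moved by -2.74 and -1.83. A gene that was bright in 1 group alone could stay below the mean signal required and was then not tested. Quantile normalization moved the differences by a median of 0.11 and left 2765 genes higher and 2665 lower, a share of 50.9% higher among the calls, against 45.4% without it.

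**Figure D2:**
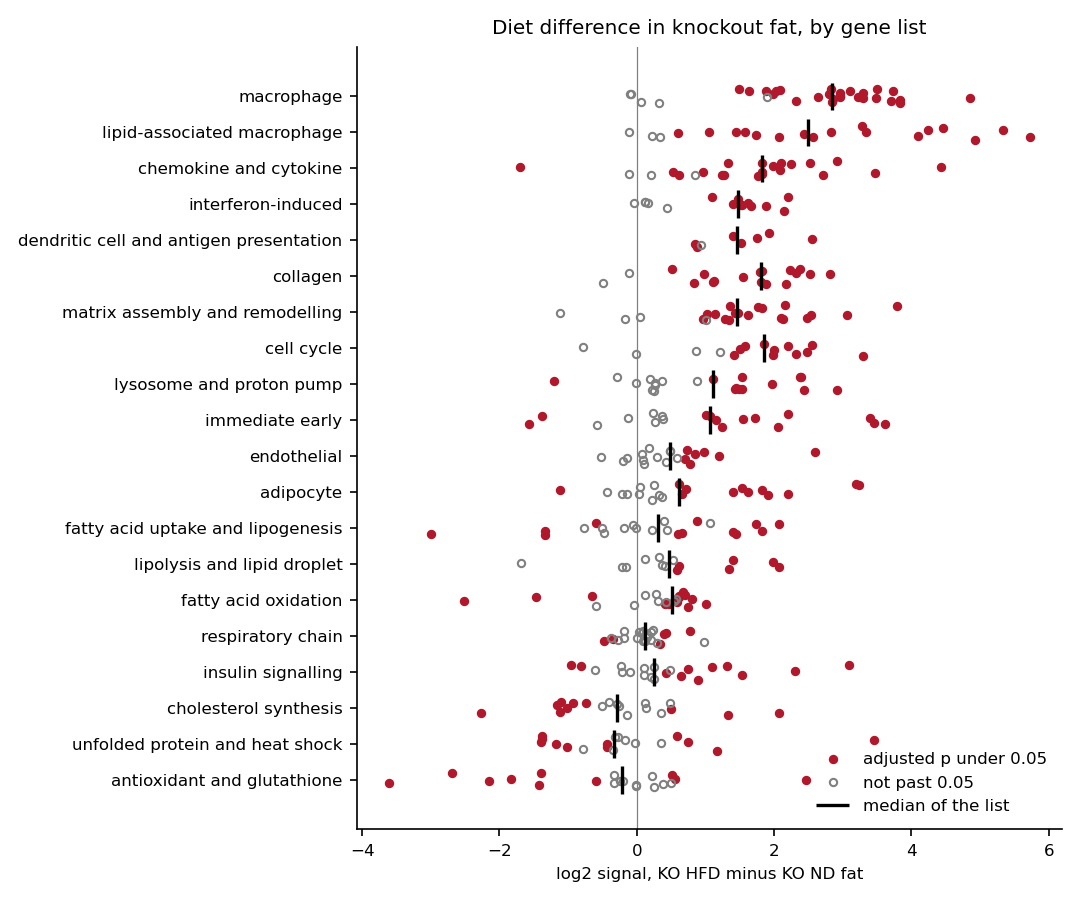
Log2 difference of KO HFD minus KO ND fat for each tested gene of 20 gene lists; filled points passed an adjusted p of 0.05, open points did not, and the bar is the median of the list. The macrophage, lipid-associated macrophage, collagen and cell cycle lists lie mostly to the right of 0, whereas the cholesterol synthesis, unfolded protein and antioxidant lists have medians of -0.29, -0.33 and -0.22.

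Macrophage genes rose together. Of 35 on the list 34 had a probe set, 32 were tested, 27 rose and 0 fell, and the median log2 difference was 2.85 (1.25 under the adipocyte centring, which left 18 higher and 4 lower). The surface receptor Adgre1, also known as F4/80, gave 1096, 1267 and 2243 in KO HFD fat, against 95.3, 98.0 and 140 in KO ND fat, a 13.3-fold rise (log2 difference 3.74 ± 0.28, adjusted p = 4.6e-06). Cd68, a lysosomal glycoprotein of phagocytes, gave 2222, 2868 and 4388 in KO HFD fat, against 166, 211 and 279 in KO ND fat and rose 14.2-fold (log2 difference 3.83 ± 0.36, adjusted p = 1.5e-05). For both genes every KO HFD mouse lay far above every KO ND mouse, and mouse 429 was highest. Csf1r, the receptor that keeps macrophages alive, gave 4009, 4413 and 4545 in KO HFD fat, against 1415, 1190 and 1598 in KO ND fat and rose 3.10-fold (adjusted p = 9.1e-06).

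Receptors and effectors of phagocytes behaved alike. Cybb, the catalytic subunit of the NADPH oxidase, gave 1148, 1053 and 1874 in KO HFD fat, against 104, 93.7 and 106 in KO ND fat (log2 difference 3.70 ± 0.27, adjusted p = 3.4e-06). Sirpa, the receptor for the CD47 signal on other cells, gave 685, 933 and 1433 in KO HFD fat, against 62.3, 70.7 and 70.8 in KO ND fat (log2 difference 3.84 ± 0.28, adjusted p = 3.4e-06). C1qb, a chain of complement C1q, gave 2321, 3015 and 3376 in KO HFD fat, against 366, 360 and 494 in KO ND fat (log2 difference 2.83 ± 0.18, adjusted p = 1.6e-06). None of these 3 genes overlapped between diets. Ms4a7, a membrane protein of resident and recruited macrophages, rose 8.56-fold and Cd84, a SLAM family receptor, 29.0-fold. The 5 tested macrophage genes that did not pass the test were Cd163, Fcgr2b, Aif1, Mertk and Lyve1. The inhibitory Fc receptor Fcgr2b gave 699, 563 and 854 in KO HFD fat, against 610, 845 and 804 in KO ND fat (log2 difference -0.10 ± 0.16). The count of 27 was the same without mouse 427 and under each other array left out of the knockout fat.

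**Figure D3:**
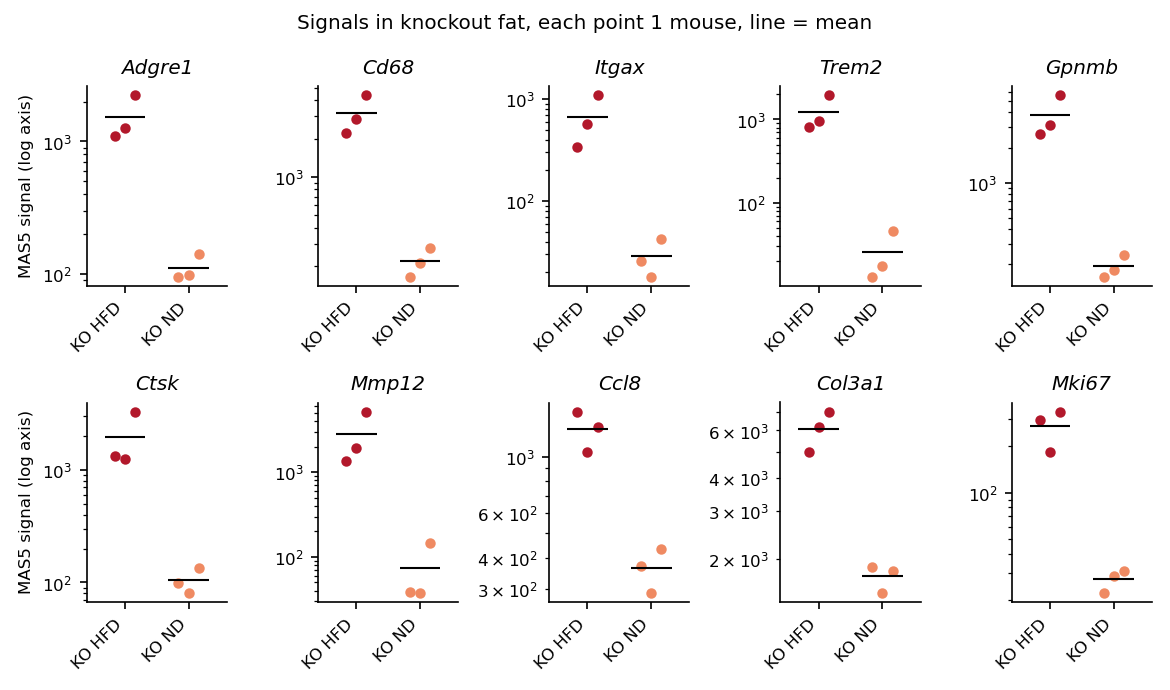
MAS5 signals (log axis) of 10 genes in the 3 KO HFD and 3 KO ND mice; each point is 1 mouse and the line is the mean. In every panel the 3 KO HFD mice lie above the 3 KO ND mice, and for 9 of the 10 genes, all but Ccl8, mouse 429 is the highest.

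The program of lipid-associated macrophages, the lipid-laden cells that gather in obese fat, rose with them. Of 24 genes 22 had a probe set, 20 were tested, 17 rose and 0 fell, and the median log2 difference was 2.50 (0.90 under the adipocyte centring, which left 9 higher and 3 lower). Trem2, the lipid-sensing receptor of these cells, gave 807, 966 and 1965 in KO HFD fat, against 13.0, 17.3 and 46.0 in KO ND fat and rose 52.9-fold (log2 difference 5.73 ± 0.74, adjusted p = 0.00011). Gpnmb, a glycoprotein of loaded lysosomes, gave 2609, 3131 and 5631 in KO HFD fat, against 157, 180 and 242 in KO ND fat and rose 18.9-fold (log2 difference 4.24 ± 0.44, adjusted p = 2.8e-05). Itgax, the CD11c integrin chain, gave 339, 567 and 1091 in KO HFD fat, against 25.8, 18.2 and 42.6 in KO ND fat (log2 difference 4.45 ± 0.41, adjusted p = 1.4e-05). The diets did not overlap for any of them.

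Enzymes of matrix and lipid breakdown were among the strongest members of this list. Mmp12, a macrophage elastase, gave 1357, 1941 and 5195 in KO HFD fat, against 38.8, 37.5 and 145 in KO ND fat and rose 40.2-fold. Without mouse 720, the highest KO ND mouse, its log2 difference was 5.97 in place of 5.33. Ctsk, a collagen-cutting cathepsin, gave 1315, 1250 and 3270 in KO HFD fat, against 98.0, 80.6 and 135 in KO ND fat (log2 difference 4.10 ± 0.34, adjusted p = 7.0e-06). Lipa, the acid lipase that frees fatty acids and cholesterol in the lysosome, gave 1384, 1714 and 2826 in KO HFD fat, against 196, 187 and 200 in KO ND fat (log2 difference 3.28 ± 0.24, adjusted p = 3.8e-06). Nceh1, which hydrolyses cholesteryl esters outside it, gave 442, 384 and 845 in KO HFD fat, against 54.0, 56.2 and 45.7 in KO ND fat (log2 difference 3.34 ± 0.45, adjusted p = 0.00016). Slc37a2, a sugar-phosphate transporter of macrophages, was dim in KO ND fat and rose at least 23.0-fold. Apoe, a lipid carrier that adipocytes also make, gave 3202, 3897 and 3849 in KO HFD fat, against 4059, 4186 and 3537 in KO ND fat and did not pass the test (adjusted p = 0.69).

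Lysosomal genes outside that program rose in part. Of 25 on the list 22 had a probe set, 21 were tested, 11 rose and 1 fell, with a median log2 difference of 1.11 (-0.50 under the adipocyte centring, which left 1 higher and 9 lower). Ctsz, a carboxypeptidase of the cathepsin family, gave 3144, 3545 and 4723 in KO HFD fat, against 383, 432 and 733 in KO ND fat (log2 difference 2.92 ± 0.25, adjusted p = 9.2e-06). Psap, the precursor of the saposins that present glycolipids to hydrolases, gave 4783, 5711 and 6516 in KO HFD fat, against 2050, 2039 and 2100 in KO ND fat, with 3 nearly equal KO ND mice (log2 difference 1.45 ± 0.12, adjusted p = 7.5e-06). Hexa, a subunit of hexosaminidase, rose 2.90-fold, and the proton pump subunits Tcirg1 and Atp6v0d2 rose 5.21-fold and 5.39-fold. Mitf, a transcription factor of the family that drives lysosomal genes, gave 462, 585 and 912 in KO HFD fat, against 128, 122 and 108 in KO ND fat (log2 difference 2.39 ± 0.26, adjusted p = 3.8e-05). Lamp1, the abundant lysosomal membrane protein, gave 2673, 3246 and 3866 in KO HFD fat, against 2515, 2691 and 2291 in KO ND fat (log2 difference 0.37 ± 0.15, adjusted p = 0.057). The 1 fall was Neu1, a sialidase (log2 difference -1.20), which turned to 0.18 (adjusted p = 0.63) when all its probe sets were averaged.

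Factors of the Mitf and Tfeb family bind the E-box letters CACGTG, a palindrome that reads alike on both strands, so the promoters of the risen genes were searched for it. Promoter sequences, 250 bases before to 50 after each gene's start, came from RefSeq on build GRCm38.p6. Of the lipid-associated macrophage and lysosome genes called higher 23 had a promoter there, and 6 (26.1%) held the letters, against 10.2% of 9384 tested genes with a promoter and 7.24% of all 27025. The promoters of Lipa, Slc37a2, Ctsk and Psap, the 4 of smallest p, held none. The first 3 by p among those that held it, shown because their promoters carry the motif beside a measured rise, were the proton pump subunit Atp6v1a (994, 1156 and 1842 in KO HFD fat, against 446, 453 and 472 in KO ND fat), the aspartic protease Ctsd (2547, 3395 and 4328 in KO HFD fat, against 1149, 1127 and 1429 in KO ND fat) and Nceh1. For each of them all KO HFD mice lay above all KO ND mice. Under the adipocyte centring the log2 differences of Atp6v1a and Ctsd turned to -0.11 and -0.16. The 3 promoters lie at chr16:44139210-44139509 on the minus strand, chr7:142387778-142388077 on the minus strand and chr3:27182754-27183053 on the plus strand. Capitals mark CACGTG, which begins 131 bases before the start of Atp6v1a, 245 and 98 before that of Ctsd and 26 before that of Nceh1.
Atp6v1a: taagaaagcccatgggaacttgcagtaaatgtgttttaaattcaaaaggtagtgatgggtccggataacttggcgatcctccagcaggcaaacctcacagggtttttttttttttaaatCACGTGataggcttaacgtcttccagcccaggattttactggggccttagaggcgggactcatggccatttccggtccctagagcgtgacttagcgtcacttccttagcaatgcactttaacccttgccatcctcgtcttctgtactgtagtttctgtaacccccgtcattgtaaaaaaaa
Ctsd: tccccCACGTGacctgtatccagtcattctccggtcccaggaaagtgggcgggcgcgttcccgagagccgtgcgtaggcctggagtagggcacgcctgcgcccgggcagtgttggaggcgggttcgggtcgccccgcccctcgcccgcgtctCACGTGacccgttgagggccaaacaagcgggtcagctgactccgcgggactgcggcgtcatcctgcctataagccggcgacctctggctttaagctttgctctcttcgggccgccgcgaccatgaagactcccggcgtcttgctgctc
Nceh1: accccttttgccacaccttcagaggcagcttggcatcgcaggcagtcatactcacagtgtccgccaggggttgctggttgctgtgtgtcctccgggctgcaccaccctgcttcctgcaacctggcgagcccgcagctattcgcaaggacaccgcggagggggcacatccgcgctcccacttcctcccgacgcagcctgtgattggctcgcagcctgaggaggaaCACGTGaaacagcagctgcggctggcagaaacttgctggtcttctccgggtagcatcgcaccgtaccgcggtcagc
A match of letters is a description of the sequence and not evidence of binding.

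The largest rises among genes whose group means both reached the filter level included those of Ubd, Rgs1 and Cd300lb. Ubd, a ubiquitin-like modifier induced by interferon and tumour necrosis factor, gave 1778, 2343 and 1818 in KO HFD fat, against 14.3, 24.7 and 44.8 in KO ND fat and rose 78.2-fold (log2 difference 6.29 ± 0.45, adjusted p = 3.4e-06). Rgs1, a brake on chemokine receptor signalling in leukocytes, gave 942, 977 and 1702 in KO HFD fat, against 17.7, 16.4 and 30.1 in KO ND fat (log2 difference 5.82 ± 0.41, adjusted p = 2.9e-06). Cd300lb, an activating myeloid receptor, gave 648, 856 and 1336 in KO HFD fat, against 20.0, 16.02 and 29.7 in KO ND fat (log2 difference 5.42 ± 0.43, adjusted p = 5.5e-06). Between the KO HFD and KO ND mice these genes differed by well over the spread within each diet. Saa3, the acute-phase protein of fat and macrophages, gave 1558, 2898 and 962 in KO HFD fat, against 41.1, 30.7 and 65.3 in KO ND fat (log2 difference 5.23 ± 0.78, adjusted p = 0.00029). Il7r, the interleukin 7 receptor, rose 34.7-fold, Adam8, a metalloprotease of myeloid cells, 29.0-fold, C3ar1, the receptor for complement C3a, 28.4-fold, and Kcnn4, a calcium-gated potassium channel of activated leukocytes, 22.3-fold. Gpr50, an orphan receptor related to the melatonin receptors, gave 802, 263 and 383 in KO HFD fat, against 11.6, 2.72 and 11.96 in KO ND fat, where it was dim, and rose at least 25-fold (adjusted p = 3.8e-05).

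Chemokines and their receptors followed, with 19 of 23 tested genes higher and 1 lower (30 of 31 had a probe set) and a median log2 difference of 1.82 (0.22 under the adipocyte centring, which left 3 higher and 4 lower). Ccl2, the monocyte attractant, gave 410, 464 and 739 in KO HFD fat, against 17.4, 29.7 and 26.9 in KO ND fat (log2 difference 4.43 ± 0.45, adjusted p = 2.4e-05). Ccl8, a related attractant, gave 1511, 1046 and 1309 in KO HFD fat, against 372, 290 and 431 in KO ND fat (log2 difference 1.83 ± 0.23, adjusted p = 9.9e-05). Cxcl1, which draws neutrophils, gave 87.1, 199 and 197 in KO HFD fat, against 26.6, 19.6 and 23.3 in KO ND fat (log2 difference 2.71 ± 0.33, adjusted p = 7.9e-05). All 3 separated the diets fully. Tnfrsf1b, a receptor for tumour necrosis factor, rose 3.53-fold. The 1 fall was the membrane-bound chemokine Cx3cl1 (47.7, 14.3 and 30.3 in KO HFD fat, against 82.8, 92.8 and 93.2 in KO ND fat), and its receptor Cx3cr1 gave 48.0, 34.2 and 38.2 in KO HFD fat, against 41.5, 49.6 and 38.2 in KO ND fat and did not pass. The other 7 genes with a probe set, Il1b, Il6, Il10 and Tnf among them, had too low a mean signal over the 12 arrays and were not tested. For 6 of these 7, all but Il1b, every KO HFD value lay above every KO ND value, against 28.3% of all tested genes. Tnf (means 13.6 in KO HFD and 1.62 in KO ND fat) and Il10 (13.4 and 6.18) were dim in both diets. The sizes of these untested differences were not measured.

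Genes of antigen presentation rose in 7 of 8 tested, with a median log2 difference of 1.46 (-0.14 under the adipocyte centring, which left 0 called either way). Cd74, the invariant chain of class II molecules, gave 930, 977 and 884 in KO HFD fat, against 245, 250 and 340 in KO ND fat (log2 difference 1.76 ± 0.20, adjusted p = 5.5e-05). Cd83, a marker of activated dendritic cells, gave 289, 353 and 602 in KO HFD fat, against 75.3, 57.9 and 69.8 in KO ND fat (log2 difference 2.55 ± 0.28, adjusted p = 3.6e-05). Complement genes rose in 7 of 11 tested and fell in 0, with a median of 1.09 (-0.51 under the adipocyte centring, which left 1 higher and 3 lower). Interferon-induced genes rose in 10 of 15 tested, with a median of 1.47 (-0.13 under the adipocyte centring, which left 0 higher and 4 lower). The guanylate-binding protein Gbp2 gave 606, 534 and 454 in KO HFD fat, against 84.3, 113 and 179 in KO ND fat (log2 difference 2.15 ± 0.27, adjusted p = 0.00010). Rtp4, which also shapes receptor trafficking, gave 401, 468 and 638 in KO HFD fat, against 115, 132 and 160 in KO ND fat (log2 difference 1.88 ± 0.22, adjusted p = 6.0e-05), and Oas1a, a sensor of double-stranded RNA, rose 4.595-fold. In all of these genes the diets were fully apart.

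Of 6 tested neutrophil and mast cell genes 4 rose and 2 fell. Without mouse 429 5 were tested, of which 2 rose and 0 fell. The 7 untested ones had too low a mean signal. Among them S100a9, Cxcr2, Ngp and Camp overlapped between the diets. For the other 3, Mcpt4, Tpsb2 and Fcer1a, every KO HFD value lay above every KO ND value, as for 28.3% of all tested genes. S100a8, a calcium-binding protein of neutrophils and inflammatory monocytes, gave 1405, 1250 and 564 in KO HFD fat, against 38.05, 82.2 and 235 in KO ND fat, with mouse 720 at more than the other KO ND mice (log2 difference 3.47 ± 0.70, adjusted p = 0.0020). Without mouse 718 its log2 difference was 2.84, and 4.16 without mouse 720. Cpa3, a mast cell protease, gave 173, 135 and 483 in KO HFD fat, against 57.6, 58.6 and 50.8 in KO ND fat (log2 difference 2.01 ± 0.42, adjusted p = 0.0023), with mouse 429 far above the rest. Of 17 T and NK cell genes with a probe set 3 reached the mean signal required. Of these 3, 2 rose, Il7r among them, and 0 fell, with a median log2 difference of 1.37. The adipocyte centring put that median at -0.23 and left 1 higher and 1 lower, and without mouse 427 1 rose. Among the 14 untested ones the KO HFD values were all higher than the KO ND values for 4 (Cd2, Cd3d, Cd3g and Nkg7) and all lower for 1. The other 9, with Cd3e, Cd4, Cd5 and Cd8b1 among them, overlapped. Of all tested genes 28.3% had every KO HFD value above every KO ND value, so the 4 are not read as a rise of these cells. Of 9 B and plasma cell genes 4 were tested, among them Cd72, a B cell and myeloid receptor that rose 9.83-fold, and Cd22, a sialic acid-binding receptor, that rose at least 5.46-fold. The other 2 tested genes did not pass, and all 5 untested ones overlapped between the diets.

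The interstitial matrix rose as a group. Collagens rose in 16 of 18 tested and fell in 0, with a median log2 difference of 1.81 (0.20 under the adipocyte centring, which left 1 higher and 3 lower). Col1a1 gave 682, 521 and 736 in KO HFD fat, against 116, 104 and 155 in KO ND fat (log2 difference 2.38 ± 0.24, adjusted p = 2.1e-05). Col3a1 gave 4988, 6180 and 7054 in KO HFD fat, against 1867, 1488 and 1797 in KO ND fat (log2 difference 1.81 ± 0.17, adjusted p = 1.3e-05). Col5a2 gave 1978, 2853 and 3282 in KO HFD fat, against 364, 301 and 490 in KO ND fat (log2 difference 2.81 ± 0.25, adjusted p = 1.0e-05). Col6a1, part of the microfibrils around adipocytes, rose 3.53-fold. These fibrillar and microfibrillar chains did not overlap between diets. Without mouse 427 the collagen counts were 15 higher and 1 lower.

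Matrix assembly and remodelling genes rose in 18 of 22 tested, with a median of 1.46 (-0.15 under the adipocyte centring, which left 2 higher and 3 lower). Fn1, fibronectin, gave 1860, 3079 and 3776 in KO HFD fat, against 673, 569 and 714 in KO ND fat (log2 difference 2.10 ± 0.31, adjusted p = 0.00027). Lox, which crosslinks collagen, gave 685, 604 and 705 in KO HFD fat, against 249, 240 and 295 in KO ND fat (log2 difference 1.35 ± 0.20, adjusted p = 0.00026). Mmp2, a gelatinase, rose 5.83-fold, Sparc, a collagen-binding matrix protein, 2.20-fold, and the protease inhibitor Timp2 2.78-fold (log2 difference 1.48 ± 0.13, adjusted p = 9.0e-06). Timp1, an inhibitor of matrix metalloproteases, gave 363, 681 and 1081 in KO HFD fat, against 52.7, 40.3 and 47.8 in KO ND fat and rose 13.8-fold. Timp3, a matrix-bound relative, gave 619, 821 and 443 in KO HFD fat, against 673, 708 and 670 in KO ND fat and did not pass the test.

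Among 12 preadipocyte and fibroblast genes 5 rose and 3 fell, with a median of 0.71 (-0.89 under the adipocyte centring, which left 0 higher and 5 lower), and 1 fell without mouse 428 or mouse 719. Fap, a protease of activated fibroblasts, gave 222, 299 and 381 in KO HFD fat, against 49.2, 37.5 and 69.4 in KO ND fat (log2 difference 2.54 ± 0.29, adjusted p = 4.7e-05). Lum, the collagen-binding proteoglycan lumican, rose 3.84-fold, and Icam1, an adhesion molecule of committed preadipocytes and of endothelium, 3.02-fold. Dpp4, a peptidase of early mesenchymal progenitors that epithelia carry too, fell (142, 92.9 and 76.4 in KO HFD fat, against 296, 325 and 243 in KO ND fat, adjusted p = 0.00020), and each of its KO HFD values lay below each KO ND value.

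Cell cycle genes rose in 11 of 15 tested and fell in 0 (21 of 22 had a probe set), with a median log2 difference of 1.86 (0.26 under the adipocyte centring, which left 1 higher and 2 lower). Mki67, the Ki-67 antigen of dividing cells, gave 297, 182 and 337 in KO HFD fat, against 22.1, 28.6 and 30.9 in KO ND fat (log2 difference 3.29 ± 0.49, adjusted p = 0.00028). The replication helicase subunit Mcm5 gave 292, 223 and 319 in KO HFD fat, against 57.9, 55.7 and 66.5 in KO ND fat (log2 difference 2.20 ± 0.20, adjusted p = 1.3e-05). The replication clamp Pcna gave 1899, 1987 and 2949 in KO HFD fat, against 832, 859 and 808 in KO ND fat (log2 difference 1.42 ± 0.17, adjusted p = 6.9e-05). All KO HFD mice were above all KO ND mice for these. Top2a, which untangles chromosomes, rose 4.97-fold, Ccna2, the S-phase cyclin, 3.996-fold, and Cdk1, the kinase of mitotic entry, 5.59-fold. Ccnd1, the G1 cyclin, gave 689, 275 and 387 in KO HFD fat, against 686, 779 and 704 in KO ND fat, in which mouse 427 matched the KO ND mice, and did not pass the test (log2 difference -0.79 ± 0.33).

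Immediate early genes, which answer a stimulus within minutes, were higher in 11 of 19 and lower in 2, with a median of 1.06 (-0.54 under the adipocyte centring, which left 3 higher and 8 lower). Fos gave 2094, 1897 and 2363 in KO HFD fat, against 238, 120 and 180 in KO ND fat (log2 difference 3.61 ± 0.23, adjusted p = 1.8e-06). Atf3, a stress-induced factor, gave 360, 430 and 892 in KO HFD fat, against 42.6, 45.4 and 54.8 in KO ND fat (log2 difference 3.45 ± 0.39, adjusted p = 5.2e-05). Egr1 gave 1602, 865 and 1731 in KO HFD fat, against 367, 259 and 262 in KO ND fat (adjusted p = 5.6e-05). Btg2, an antiproliferative gene, and Klf4, a zinc-finger factor, rose 3.28-fold and 2.09-fold. The 2 that fell were Egr2 (414, 424 and 516 in KO HFD fat, against 1133, 1192 and 1183 in KO ND fat) and Ier3 (274, 120 and 173 in KO HFD fat, against 497, 567 and 537 in KO ND fat).

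Endothelial genes answered the diet less in knockout than in wild-type fat. Of 19 tested 7 rose and 0 fell in knockout fat, with a median log2 difference of 0.48 (-1.12 under the adipocyte centring and -0.10 under the milder one, which left 0 and 1 higher and 11 and 4 lower). Without mouse 718 the count of rises was 4. Kdr, the main receptor for vascular endothelial growth factor, gave 204, 227 and 130 in KO HFD fat, against 212, 214 and 201 in KO ND fat, so that the diets overlapped (log2 difference -0.19 ± 0.23, adjusted p = 0.52). In wild-type fat Kdr gave 625, 747 and 651 in WT HFD fat, against 90.1, 163 and 139 in WT ND fat, a log2 difference of 2.41, adjusted p = 1.3e-05, which the adipocyte centring turned negative. The difference between the 2 diet effects, knockout minus wild type, was -2.60 ± 0.33, adjusted p = 0.0033. Such differences are given for single genes only where the call held with each of the 12 arrays left out in turn and with a gene's probe sets averaged.

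The same held across the list, since the diet effect was smaller in knockout than in wild-type fat for 17 of the 19 genes by the interaction test, against 7.27% of all genes. The 12 fits that each left out 1 array gave 15 to 18 such genes, the adipocyte centring gave 0 and the milder one 4. Gpihbp1, which carries lipoprotein lipase to the capillary wall, gave 1042, 1683 and 916 in KO HFD fat, against 886, 799 and 942 in KO ND fat, and 3714, 3545 and 3843 in WT HFD fat, against 428, 800 and 876 in WT ND fat (difference of diet effects -2.04 ± 0.38, adjusted p = 0.0096). Aplnr, the apelin receptor of growing vessels, rose in both genotypes, with 1202, 1468 and 1113 in KO HFD fat, against 194, 202 and 228 in KO ND fat, and with 2078, 1546 and 1072 in WT HFD fat, against 67.9, 53.2 and 59.3 in WT ND fat (difference -2.06 ± 0.29, adjusted p = 0.0043). Tek, the angiopoietin receptor, gave 214, 264 and 213 in KO HFD fat, against 131, 142 and 140 in KO ND fat (log2 difference 0.74 ± 0.12, adjusted p = 0.00052), and its difference of diet effects was -1.46 ± 0.17, adjusted p = 0.0029. Pecam1, a junction molecule of all endothelium, gave 91.4, 92.2 and 49.7 in KO HFD fat, against 95.0, 116 and 111 in KO ND fat (adjusted p = 0.086), and its difference was -1.48 ± 0.33, adjusted p = 0.018. Cdh5, the endothelial cadherin, rose 1.97-fold and Plvap, a diaphragm protein of fenestrated vessels, 2.28-fold in knockout fat. Only Kdr and Gpihbp1 of the 5 genes given with this test held the call under the milder centring, and none of the 5 under the other.

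Adipocyte genes split. Of 21 tested 11 rose and 1 fell, with a median log2 difference of 0.62 (-0.98 under the adipocyte centring, which left 2 higher and 10 lower). That centring is set on this same list, so its values here are not an independent check. The 1 fall was Retn, resistin, and its call was lost without any one of mice 427, 429, 718, 719 and 720. The defining secreted and lipid-handling products were bright, and their diets overlapped. Adipoq, adiponectin, gave 4439, 6483 and 5520 in KO HFD fat, against 5396, 5674 and 4770 in KO ND fat. Fabp4, the fatty acid carrier of adipocytes, gave 7230, 8955 and 8852 in KO HFD fat, against 8210, 8995 and 7261 in KO ND fat. Car3, the carbonic anhydrase of adipocytes, gave 6275, 8474 and 6618 in KO HFD fat, against 7779, 8546 and 7107 in KO ND fat. For these 3 the diets overlapped and the log2 differences were 0.04 ± 0.20, 0.03 ± 0.18 and -0.14 ± 0.17, although 1 of the 4 tested probe sets of Car3 was called lower. The deposited values carry no saturation flag, so whether such bright probe sets could show a change is unknown.

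Of 19 adipokine and hormone genes 10 rose and 3 fell, with a median of 0.997 (-0.60 under the adipocyte centring, which left 3 higher and 9 lower). Lep, leptin, gave 3031, 4458 and 2568 in KO HFD fat, against 315, 157 and 920 in KO ND fat, with no overlap (log2 difference 3.19 ± 0.94, adjusted p = 0.016). The call was lost without mouse 428 (adjusted p = 0.052) and without mouse 719 (log2 difference 2.60, adjusted p = 0.067), and without mouse 720, the highest KO ND mouse, the difference was 3.88. Sfrp5, a secreted Wnt inhibitor of adipocytes, gave 428, 988 and 274 in KO HFD fat, against 43.3, 25.3 and 127 in KO ND fat (log2 difference 3.23 ± 0.61, adjusted p = 0.0013), and 3.88 without mouse 720. Cebpa, a master factor of adipocyte differentiation, gave 421, 649 and 426 in KO HFD fat, against 149, 133 and 201 in KO ND fat (log2 difference 1.62 ± 0.25, adjusted p = 0.00032). Gpd1, which makes the glycerol backbone of triglyceride, gave 771, 1162 and 549 in KO HFD fat, against 188, 143 and 189 in KO ND fat (log2 difference 2.20 ± 0.32, adjusted p = 0.00025). Lcn2, a lipocalin that both inflamed fat and epididymal epithelium make, fell (691, 203 and 153 in KO HFD fat, against 5100, 5773 and 5138 in KO ND fat), with the KO ND mice, whose arrays were rich in epididymal RNA, far above all KO HFD mice. The part of that RNA was not tested, and the log2 difference was -4.92 without mouse 427, against -4.26 with it.

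Genes of fatty acid uptake and lipogenesis moved in both directions, 8 higher and 4 lower of 22, with a median of 0.31 (-1.29 and -0.27 under the centrings, which left 0 and 5 higher and 13 and 9 lower). Dgat2, which completes triglyceride, gave 1219, 2050 and 1139 in KO HFD fat, against 340, 306 and 626 in KO ND fat (log2 difference 1.82 ± 0.32, adjusted p = 0.00086). Agpat2, an earlier acyltransferase, gave 1011, 1419 and 901 in KO HFD fat, against 399, 413 and 387 in KO ND fat (log2 difference 1.45 ± 0.18, adjusted p = 7.6e-05). Fabp5, a fatty acid carrier of adipocytes and macrophages, rose 3.33-fold and Me1, the malic enzyme that supplies NADPH, 4.20-fold. Elovl6, which extends palmitate, fell to 107, 113 and 68.2 in KO HFD fat, against 723, 852 and 672 in KO ND fat (log2 difference -2.99 ± 0.21, adjusted p = 2.9e-06). Mlxipl, the carbohydrate-response factor ChREBP, fell too (72.5, 93.5 and 45.2 in KO HFD fat, against 178, 183 and 153 in KO ND fat, adjusted p = 0.0025). Scd1, the main stearoyl desaturase, gave 5586, 6689 and 7101 in KO HFD fat, against 6812, 7342 and 5480 in KO ND fat and did not pass the test (log2 difference -0.02 ± 0.19). Fasn, fatty acid synthase, gave 966, 2144 and 1115 in KO HFD fat, against 616, 665 and 899 in KO ND fat (log2 difference 0.88 ± 0.29, adjusted p = 0.026), but the call was lost without mouse 428, 718 or 719 (adjusted p = 0.095, 0.088 and 0.077).

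Lipid droplet and lipolysis genes rose in 6 of 14 tested and fell in 0, with a median of 0.47 (-1.13 and -0.11 under the centrings, which left 0 and 4 higher and 8 and 3 lower), and in 2 of 14 without mouse 428. Plin2, the droplet coat of macrophages and other cells, gave 3609, 4613 and 5376 in KO HFD fat, against 1173, 909 and 1134 in KO ND fat (log2 difference 2.07 ± 0.38, adjusted p = 0.0010). G0s2, the inhibitor of adipose triglyceride lipase, gave 1336, 1996 and 1008 in KO HFD fat, against 708, 351 and 661 in KO ND fat (log2 difference 1.34 ± 0.29, adjusted p = 0.0031). Pnpla2, that lipase itself, gave 1029, 1632 and 1079 in KO HFD fat, against 813, 798 and 770 in KO ND fat (log2 difference 0.62 ± 0.18), which missed the threshold without mouse 428 (adjusted p = 0.0503). Mgll, the monoglyceride lipase, gave 2377, 3319 and 1948 in KO HFD fat, against 1742, 1760 and 2118 in KO ND fat and did not pass (adjusted p = 0.11). Fatty acid oxidation genes rose in 11 of 22 and fell in 3, with a median of 0.51 (-1.09 and -0.07 under the centrings, which left 0 higher and 12 and 4 lower), and rose in 6 without mouse 428 or mouse 719. Hadhb, a subunit of the mitochondrial trifunctional protein, rose 2.02-fold and Decr1, which handles unsaturated fatty acids, 1.67-fold. The respiratory chain stayed close to 0, with 4 higher and 2 lower of 23 and a median of 0.12 (-1.48 and -0.46 under the centrings, which left 0 higher and 21 and 10 lower). Sdhc of complex II rose (log2 difference 0.78 ± 0.10, adjusted p = 0.00012) and Uqcrc1 of complex III fell (log2 difference -0.48 ± 0.12, adjusted p = 0.0081). Without mouse 718 or mouse 720 the count of rises was 2. Of 9 beige and thermogenic genes 1 rose and 2 fell. Ucp1, the uncoupler of brown and beige fat, gave 13.6, 10.5 and 26.9 in KO HFD fat, against 311, 15.4 and 0.67 in KO ND fat, and 1 KO ND mouse, 718, was far above the other 5 mice.

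Insulin signalling genes rose in 9 of 21 tested and fell in 2, with a median of 0.26 (-1.35 and -0.32 under the centrings, which left 1 and 4 higher and 13 and 5 lower). Pik3ap1, an adapter of phosphoinositide 3-kinase in leukocytes, gave 595, 588 and 1007 in KO HFD fat, against 87.1, 81.6 and 80.1 in KO ND fat (log2 difference 3.09 ± 0.20, adjusted p = 2.0e-06). Socs3, an inhibitor of cytokine and insulin receptor signalling, gave 165, 172 and 230 in KO HFD fat, against 40.7, 34.0 and 38.6 in KO ND fat (log2 difference 2.31 ± 0.28, adjusted p = 8.5e-05). Grb14, an adapter that inhibits the insulin receptor, gave 245, 279 and 213 in KO HFD fat, against 94.3, 92.3 and 109 in KO ND fat (log2 difference 1.31 ± 0.13, adjusted p = 2.1e-05). For all 3 the diets were apart. Insr, the insulin receptor, gave 214, 269 and 183 in KO HFD fat, against 383, 440 and 341 in KO ND fat on its brightest probe set (log2 difference -0.82 ± 0.20, adjusted p = 0.0056), but the mean of its probe sets differed by -0.15 (adjusted p = 0.69). Irs1 gave 193, 236 and 204 in KO HFD fat, against 283, 302 and 174 in KO ND fat and did not pass, and Irs3, an insulin receptor substrate of rodent adipocytes, rose 2.90-fold.

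Pck1, Nrg4 and Ces1f, genes of adipocyte metabolism and secretion, fell in knockout fat and, on the authors' scaling, rose in wild-type fat. Pck1, the enzyme of glyceroneogenesis, gave 603, 930 and 498 in KO HFD fat, against 1990, 2039 and 2023 in KO ND fat, with all KO HFD mice below all KO ND mice (log2 difference -1.63 ± 0.33, adjusted p = 0.0021). In wild-type fat it gave 2164, 3128 and 4014 in WT HFD fat, against 793, 718 and 1713 in WT ND fat (log2 difference 1.6, adjusted p = 0.0020). The difference of the 2 diet effects was -3.23 ± 0.47, adjusted p = 0.0043. Nrg4, a growth factor secreted by adipocytes, gave 68.1, 139 and 50.3 in KO HFD fat, against 225, 170 and 184 in KO ND fat, and 292, 423 and 634 in WT HFD fat, against 84.0, 82.6 and 111 in WT ND fat (difference -3.52 ± 0.50, adjusted p = 0.0043). Ces1f, a carboxylesterase that adipocytes and liver make, gave 69.2, 110 and 46.8 in KO HFD fat, against 192, 243 and 180 in KO ND fat, and 582, 829 and 1416 in WT HFD fat, against 280, 161 and 253 in WT ND fat (difference -3.49 ± 0.51, adjusted p = 0.0043). Fam13a, a gene linked to fat distribution in human studies, fell 6.22-fold in knockout fat (25.2, 42.6 and 32.5 in KO HFD fat, against 250, 189 and 177 in KO ND fat) and gave 252, 201 and 741 in WT HFD fat, against 231, 162 and 286 in WT ND fat (difference -3.24 ± 0.59, adjusted p = 0.0094). Fam13a did not pass the test in wild-type fat. These 4 are among the 8 most negative differences of genes called both in knockout fat and in the difference, and were named for that size. The adipocyte centring put the wild-type log2 differences of Pck1, Ces1f and Nrg4 at -1.14, -0.77 and -0.52, and the milder one at -0.23, 0.14 and 0.39, so that the direction in wild-type fat depends on the scaling.

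In the cholesterol synthesis list 7 of 19 members were lower under HFD and 3 higher, and the median was -0.29. The falls were 4 without mouse 719, and 4 with each gene's probe sets averaged. Tm7sf2, a sterol reductase, gave 108, 45.9 and 61.7 in KO HFD fat, against 348, 352 and 280 in KO ND fat (log2 difference -2.27 ± 0.26, adjusted p = 5.2e-05). Nsdhl, which removes sterol methyl groups, gave 267, 263 and 231 in KO HFD fat, against 584, 536 and 579 in KO ND fat (log2 difference -1.16 ± 0.10, adjusted p = 1.0e-05). Dhcr7, the last reductase of the pathway, rose instead (162, 114 and 183 in KO HFD fat, against 31.9, 52.6 and 27.5 in KO ND fat, log2 difference 2.06 ± 0.29, adjusted p = 0.00019). Of 10 cholesterol efflux and storage genes 4 rose and 0 fell, and under the adipocyte centring 2 were higher and 6 lower. The exporter Abca1 gave 1741, 2264 and 1990 in KO HFD fat, against 1911, 1781 and 1930 in KO ND fat and did not pass, and Abcg1 gave 521, 710 and 930 in KO HFD fat, against 275, 268 and 239 in KO ND fat (log2 difference 1.43 ± 0.41, adjusted p = 0.015), which missed the threshold without mouse 429 (log2 difference 1.22, adjusted p = 0.056).

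Stress genes of the endoplasmic reticulum and of glutathione metabolism fell more often than they rose, at shares that stand against 26.7% lower among all genes. Of 18 unfolded protein and heat shock genes 7 fell and 4 rose, with a median of -0.33. Herpud1, part of the degradation machinery of the endoplasmic reticulum, gave 353, 303 and 292 in KO HFD fat, against 636, 697 and 581 in KO ND fat (log2 difference -1.02 ± 0.11, adjusted p = 4.0e-05). Pdia4, a disulfide isomerase, gave 173, 194 and 261 in KO HFD fat, against 584, 594 and 449 in KO ND fat (log2 difference -1.39 ± 0.20, adjusted p = 0.00025), while the chaperone Hspa5 gave 2680, 3661 and 4396 in KO HFD fat, against 4205, 4031 and 3627 in KO ND fat on its brightest probe set and did not pass, although 2 of its 3 tested probe sets were called lower. Of 20 antioxidant genes 7 fell and 3 rose, with a median of -0.22. Nqo1, a quinone reductase, gave 40.1, 25.9 and 26.1 in KO HFD fat, against 222, 204 and 162 in KO ND fat (log2 difference -2.69 ± 0.25, adjusted p = 1.3e-05). The 2 subunits of glutamate-cysteine ligase fell together, Gclc to 147, 95.9 and 120 in KO HFD fat, against 316, 342 and 301 in KO ND fat, and Gclm to 320, 238 and 338 in KO HFD fat, against 831, 802 and 708 in KO ND fat. Gpx3, the secreted glutathione peroxidase, fell 4.43-fold (484, 205 and 455 in KO HFD fat, against 1968, 1624 and 1231 in KO ND fat). Gsta4, which detoxifies lipid aldehydes, gave 132, 21.7 and 9.14 in KO HFD fat, against 436, 346 and 312 in KO ND fat, with mouse 427 highest among the KO HFD mice. Secretory epithelium expresses many of these genes, and the epididymis genes fell between the same arrays. The part of epididymal RNA in these falls was not tested.

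Ffar4 itself was low on all knockout arrays. It gave 26.5, 30.5 and 23.1 in KO HFD fat, against 34.2, 33.7 and 35.7 in KO ND fat, with the diets apart, but the difference did not pass the test (log2 difference -0.38 ± 0.21, adjusted p = 0.16), and 97.3, 126 and 171 in WT HFD fat, against 62.0, 58.3 and 73.7 in WT ND fat. All 6 KO values lay below all 6 WT values. The sources used here do not place this probe set inside or outside the deletion, and its signal therefore does not check the genotype. Ffar4 rose with diet in wild-type fat (log2 difference 0.99, adjusted p = 0.0022), which both centrings turned negative, and the difference of diet effects was -1.37 ± 0.30, adjusted p = 0.018. The other 4 tested members of the metabolite receptor list were all called higher, but 0 of them were when mouse 428, 719 or 547 was left out, and 0 under the adipocyte centring. Sucnr1, the succinate receptor, gave 541, 1081 and 395 in KO HFD fat, against 302, 209 and 463 in KO ND fat, with overlap, and its call (adjusted p = 0.047) was lost without any one of mice 427, 428, 718 and 719 (adjusted p = 0.057, 0.19, 0.10 and 0.18). Its diet effect was smaller than in the wild type (1311, 978 and 975 in WT HFD fat, against 91.3, 84.2 and 150 in WT ND fat, difference -2.37 ± 0.53, adjusted p = 0.020). Ffar2, the receptor for short-chain fatty acids, gave 225, 377 and 160 in KO HFD fat, against 143, 113 and 165 in KO ND fat. The lactate receptor Hcar1 gave 40.0, 56.6 and 22.1 in KO HFD fat, against 12.3, 6.25 and 22.6 in KO ND fat, and the niacin receptor Hcar2 29.1, 55.4 and 38.3 in KO HFD fat, against 10.1, 4.06 and 24.3 in KO ND fat, and both calls were lost without mouse 428 (adjusted p = 0.060 and 0.059) or mouse 719 (0.056 and 0.057). Ffar2 was called at an adjusted p of 0.048 and in none of the 5 fits that left out mouse 427, 428, 718, 719 or 720 (0.067, 0.19, 0.090, 0.16 and 0.053).

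Over all genes the diet effects of the 2 genotypes ran largely in parallel, with a Pearson correlation of 0.83 across the 11601 genes, which share arrays, scaling and the epididymal RNA of the ND groups and are not independent replicates. Wild-type fat had 6441 genes called (55.5%), 28% higher and 27.5% lower. Of the 5662 genes called in knockout fat 3951 were called in the same direction in wild-type fat, 120 in the opposite one and 1591 were not called there. A test of the difference itself called 1282 genes (11.1%), 439 with a more positive diet effect in the knockout (3.78%) and 843 with a more negative one (7.27%). Of these 730 were also called in knockout fat. Among the genes that rose there 278 had a more positive effect than in the wild type and 184 a more negative one, and among those that fell 221 had a more negative effect and 47 a more positive one. The counts of 439 and 843 depend on single arrays, ranging from 197 (without mouse 718) to 640 and from 446 (without mouse 718) to 967 over the 12 fits that left out 1 array. The adipocyte centring gave 778 more positive and 12 more negative, and the milder one 7665 and 84.

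Macrophage genes had 11 of 32 called with a larger diet effect in the knockout and 1 with a smaller one, and between 4 and 17 with a larger one when 1 array was left out (4 without mouse 718, 5 without mouse 719 or 560, 17 without mouse 547). The centrings gave 19 and 30 with a larger effect and 0 with a smaller one. Adgre1 gave 221, 420 and 318 in WT HFD fat, against 78.1, 91.3 and 82.8 in WT ND fat, and its difference of diet effects was 1.86 ± 0.40, adjusted p = 0.017. For Sirpa the difference was 2.18 ± 0.39, adjusted p = 0.0084, for Cd84 3.18 ± 0.68, adjusted p = 0.017, and each held with every array left out in turn. Within the lipid-associated program Gpnmb gave 215, 860 and 583 in WT HFD fat, against 239, 262 and 187 in WT ND fat (difference 3.17 ± 0.62, adjusted p = 0.012) and Ctsk 191, 309 and 251 in WT HFD fat, against 71.7, 87.4 and 84.0 in WT ND fat (difference 2.49 ± 0.48, adjusted p = 0.011). Slc37a2 gave 28.5, 84.1 and 67.6 in WT HFD fat, against 15.0, 20.0 and 13.9 in WT ND fat, where it was dim as in KO ND fat, and passed the test of the difference (adjusted p = 0.0068), though its size is uncertain. Atp6v0d2 differed by 3.77 and gave 60.7, 289 and 118 in WT HFD fat, against 237, 390 and 363 in WT ND fat, the opposite direction to the knockout. Psap, the saposin precursor, differed by 1.04 ± 0.17, adjusted p = 0.0062.

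Cell cycle genes had 8 of 15 called with a larger diet effect in the knockout and 0 with a smaller one. The count of 8 ran from 2 (without mouse 429 or 718) to 12 (without mouse 687), with 11 and 15 under the centrings. The 12 sperm genes with a probe set summed to 1491 to 28663 in WT ND fat, against 1187 to 1688 in KO ND fat. In WT ND fat Prm1 gave 4371, 451 and 4617, and Top2a 191, 21.2 and 76.9. In wild-type fat 3 cell cycle genes were called higher and 4 lower. The part of sperm and testis RNA in these counts was not tested. Mcm5 gave 106, 131 and 84.0 in WT HFD fat, against 68.9, 48.4 and 55.0 in WT ND fat (difference 1.31 ± 0.28, adjusted p = 0.017) and Pcna a difference of 1.13 ± 0.24, adjusted p = 0.016, and both held with each array left out. Timp1 gave 30.8, 131 and 37.0 in WT HFD fat, against 45.6, 55.7 and 39.7 in WT ND fat (difference 3.597 ± 0.71, adjusted p = 0.012), Lum differed by 1.502 ± 0.34, adjusted p = 0.019, Fos by 1.72 ± 0.33, adjusted p = 0.012 and Atf3 by 2.96 ± 0.56, adjusted p = 0.011. Among genes called both in knockout fat and in the difference, the 8 largest fitted positive differences were those of Npy, Gpr50, Rgs1, Cd72, Atp6v0d2, Ccnb2, Timp1 and Zranb3, of which those of Npy, dim in KO ND and WT HFD fat, and Gpr50, dim in all but KO HFD fat, are not measured sizes. Gpr50 gave 17.6, 17.4 and 5.41 in WT HFD fat, against 10.2, 9.67 and 8.71 in WT ND fat, dim in both (adjusted p of the difference = 0.0059). Rgs1 differed by 4.19 ± 0.57, adjusted p = 0.0036, Cd72 by 3.81 ± 0.52, adjusted p = 0.0036 and Zranb3, an annealing helicase, by 3.55 ± 0.61, adjusted p = 0.0069. Npy, a neuropeptide that epididymal epithelium also makes, gave 50.1, 29.9 and 6.85 in KO HFD fat, against 3.14, 2.53 and 10.7 in KO ND fat, and 9.26, 14.8 and 20.4 in WT HFD fat, against 716, 850 and 577 in WT ND fat. The 3 WT ND values were thus far above all others, among them the KO ND values (adjusted p of the difference = 0.0033). Its call in knockout fat (adjusted p = 0.019) was lost without mouse 427, 428, 718 or 719 (adjusted p = 0.064, 0.064, 0.065 and 0.075).

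**Figure D4:**
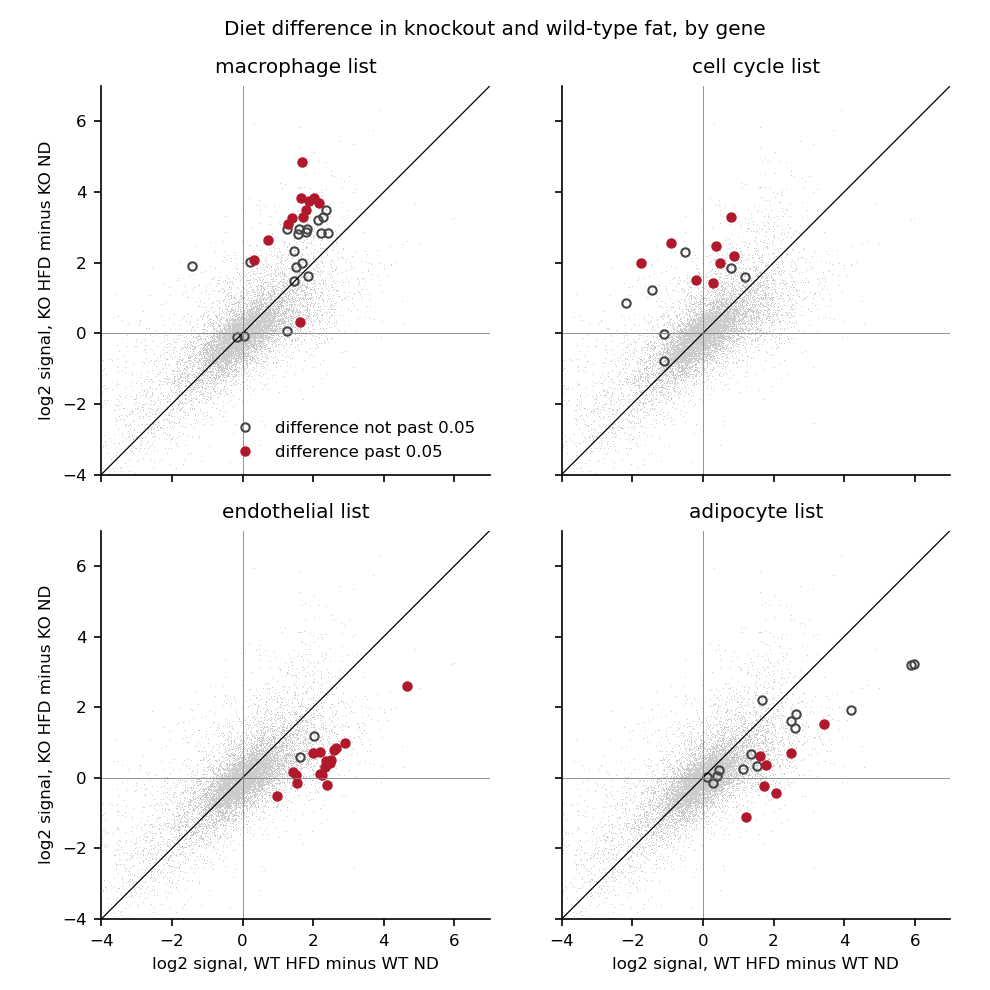
Log2 diet difference in knockout fat (KO HFD minus KO ND) against that in wild-type fat (WT HFD minus WT ND) for the genes of 4 lists, over all tested genes in grey; filled points passed the interaction test at an adjusted p of 0.05, and the diagonal marks equal effects. Macrophage and cell cycle genes lie mostly above the diagonal (11 and 8 filled above it), endothelial and adipocyte genes below it (17 and 7 filled), counts that the centrings change. Points beyond the axis limits are not drawn.

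Adipocyte genes had 7 of 21 called with a smaller diet effect in the knockout and 0 with a larger one, a count of 2 to 10 when 1 array was left out (2 without mouse 718 or 560, 3 without mouse 429 or 720, 10 without mouse 428). Under the adipocyte centring 0 were called either way, and under the milder one 3 had a smaller and 6 a larger effect. Both centrings are set on the genes of this same list, so these counts are not an independent check of it. The median diet effect of the list was 0.62 in knockout and 1.74 in wild-type fat, and that of the endothelial list 0.48 and 2.25. The 2 lists of collagen and matrix genes had medians of 1.81 and 1.46 in knockout fat and 1.88 and 1.497 in wild-type fat, with 0 and 5 members called for a difference. G0s2 gave 3026, 2115 and 2535 in WT HFD fat, against 208, 168 and 154 in WT ND fat (difference -2.51 ± 0.41, adjusted p = 0.0062), and Irs3, dim in WT ND fat, passed the test of the difference (adjusted p = 0.011). Pik3ap1, which gave 32.8, 26.5 and 31.7 in WT HFD fat, against 18.9, 21.8 and 23.7 in WT ND fat, had a larger effect in the knockout (difference 2.59 ± 0.29, adjusted p = 0.0026). Its KO ND values (87.1, 81.6 and 80.1) already lay above all wild-type values, so the genotypes differed on the normal diet too.

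**Figure D5:**
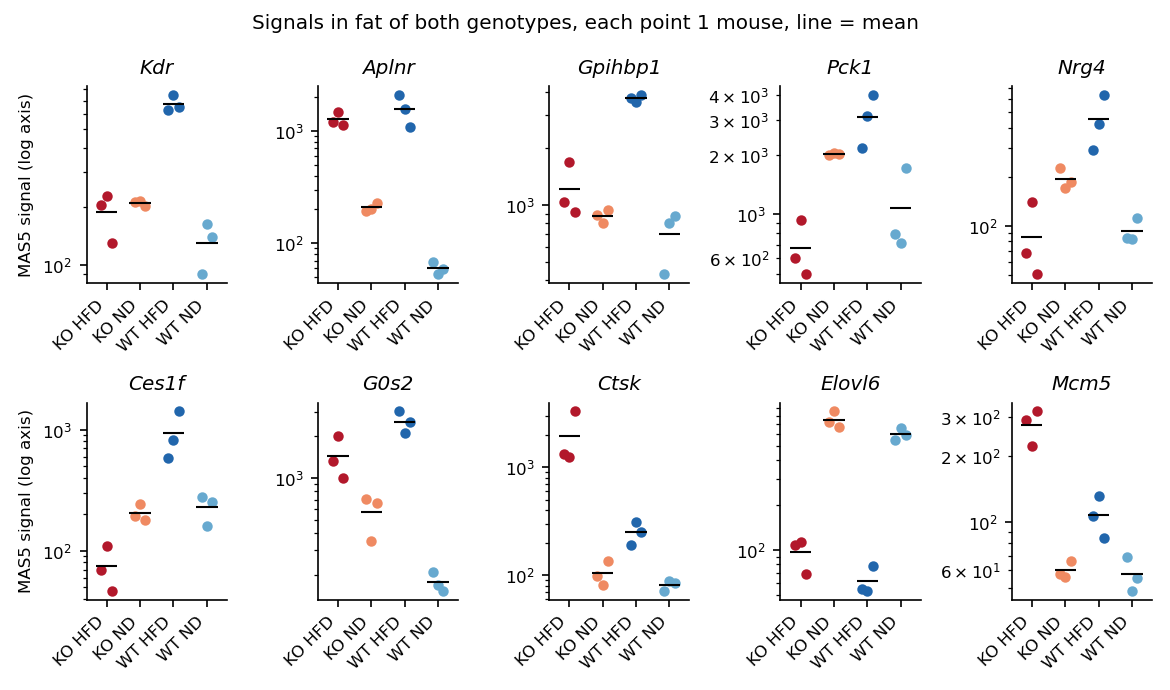
MAS5 signals (log axis) of 10 genes on the 12 fat arrays, in the order KO HFD, KO ND, WT HFD and WT ND; each point is 1 mouse and the line is the mean. Kdr and Gpihbp1 are high in WT HFD fat alone, Pck1, Nrg4 and Ces1f are lower in KO HFD than in KO ND fat and higher in WT HFD than in WT ND fat, and Elovl6 is low in both HFD groups.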

How the data were processed

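Total RNA of 12 fat samples, 3 per group, was measured on Affymetrix mouse arrays of 45101 probe sets. The deposited values are linear MAS5 signal intensities, per the submitters' processing notes, and the sources used here give no MAS5 version. Each array's trimmed mean (2% off either end) came to between 100.03 and 100.05, so the authors scaled every array to one mean. Arrays report no read depth, so their number limits the precision.

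Signals below 1.08, the 10th percentile, were set to it and log2 taken. Of the probe sets 34945 carried 1 gene symbol, 932 several and 9160 none, and 64 were controls. Each of 18193 genes was represented by its brightest probe set, and the 11601 genes whose mean log2 signal over the 12 fat arrays reached the median of all probe sets (19.3 on the linear scale) were tested with limma 3.58.1 in R 4.3.3 (lmFit and eBayes with a variance trend over the 4 fat groups, 8 residual degrees of freedom). Calls are at a Benjamini-Hochberg adjusted p of 0.05 over all of them. Every adjusted p in the text is from this fit or, where an array was left out or a setting changed, from its repeat. The difference of diet effects is the interaction contrast, knockout minus wild type. The labels do not say whether the animals were independent in litter or cage, so p-values measure the spread between these samples. The code was tested on simulated data, where the share of false calls was above the nominal threshold.

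The comparison, the named genes and the gene lists were chosen with earlier results of these data known. Named genes are Ffar4, the largest changes, the largest differences of diet effects, and from each list its first 3 members, the 4 called members of smallest p and the 2 brightest not called. Chosen after their values were seen were Atp6v1a, Ctsd, Cdk1, Cx3cl1, Egr1, Egr2, Ier3, Gsta4, Me1, Mlxipl, Neu1 and Retn. Alternatives were quantile normalization, 2 centrings on the adipocyte list, other floors and filters, probe sets averaged or tested singly, knockout arrays alone, no variance trend, and each array left out.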

Additional observations from a re-analysis of the deposited data

Results flagged for a closer look

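The diet effect differed between knockout and wild-type fat by the interaction test for 439 genes in the positive direction and 843 in the negative. Among named genes whose call held with each array left out, the difference (knockout minus wild type, log2) was positive for Rgs1 (4.19), Cd72 (3.81), Atp6v0d2 (3.77), Timp1 (3.597) and Zranb3 (3.55). It was also positive for the macrophage and myeloid genes Cd84 (3.18), Gpnmb (3.17), Adam8 (2.98), Kcnn4 (2.71), Pik3ap1 (2.59), Ctsk (2.49), C3ar1 (2.47), Sirpa (2.18), Adgre1 (1.86) and Psap (1.04). The stimulus-induced genes Atf3 (2.96) and Fos (1.72), the matrix gene Lum (1.502) and the replication genes Mcm5 (1.31) and Pcna (1.13) completed that direction. Negative differences were those of Nrg4 (-3.52), Ces1f (-3.49), Fam13a (-3.24), Pck1 (-3.23) and G0s2 (-2.51) among metabolic genes. The endothelial genes Kdr (-2.60), Aplnr (-2.06), Gpihbp1 (-2.04), Pecam1 (-1.48) and Tek (-1.46) were also negative. So were the receptors Sucnr1 (-2.37) and Ffar4 (-1.37). Ffar4 is the gene that the knockout mice lack and was low on all their fat arrays, so its difference is not read as a separate finding. The fitted differences of Npy (7.95), Gpr50 (5.58), Slc37a2 (3.17) and Irs3 (-1.74) also passed the test, but 1 or more of their groups had a mean below 19.3 intensity units, so these 4 values are not measured sizes. The summed signal of the 16 epididymis genes was 7664 on the KO HFD array of mouse 427 and at most 96.0 in WT HFD fat. Cuzd1, however, gave 178 in WT HFD mouse 546, against 254 in mouse 427. The part of epididymal or sperm RNA in these differences was not tested. Nor was that of the Actb control ratio, which was highest in WT HFD fat.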

How the results depend on the processing

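Among single-gene results, calls were ended with the sign kept 52 times by centring on the adipocyte list and 19 by the milder centring. Leaving out 1 knockout array ended 3 to 11 (11 without mouse 428), and using the KO arrays alone ended 8. Averaging probe sets ended 4 with the sign kept, dropping the filter 3, fitting no variance trend 2 and quantile normalization 1. Testing every probe set gave 3849 higher and 5053 lower in knockout fat, and 4874 higher and 5280 lower in wild-type fat, where more features are tested. Averaging a gene's probe sets gave 527 negative differences of diet effects, against 843. Centring on the adipocyte list gave 152 higher and 9081 lower in knockout fat, 21 and 10855 in wild-type fat, and 778 positive and 12 negative differences. The milder centring, chosen after seeing the data, gave 827 and 5666, 199 and 10228, and 7665 and 84. Leaving out 1 array gave 197 to 640 positive and 446 to 967 negative differences. Under the first centring 26 single log2 diet differences in knockout fat turned negative: Ffar2 (-0.82), Sucnr1 (-0.60), Timp2 (-0.13), Sparc (-0.47), Lox (-0.25), Icam1 (-0.0071), Psap (-0.15), Hexa (-0.066), Pcna (-0.18), Klf4 (-0.54), Cdh5 (-0.62), Tek (-0.87), Plvap (-0.41), Fasn (-0.72), Agpat2 (-0.16), Pnpla2 (-0.98), G0s2 (-0.26), Hadhb (-0.59), Decr1 (-0.86), Sdhc (-0.82), Grb14 (-0.29), Irs3 (-0.065), Abcg1 (-0.17), Ctsd (-0.16), Atp6v1a (-0.11) and Cspg4 (-0.85). None of these 26 kept its call, so they add to the 52 calls given above. Neu1 turned to 0.18 with its probe sets averaged and lost its call as well, beside the 4 given above. The centrings subtract one value per array, which shifts every gene. No paired analysis was possible because the groups hold different mice and share no mouse number within fat. Signals near 19.3 and genes below it limit what could be seen.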
